A study of Mus musculus with 6 samples.

Results

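The subject here is 10 genes of myostatin, activin receptor and Smad signalling in the gastrocnemius muscle of aged mice, taken by symbol from tables of 23238 distinct gene symbols. They are the ligand Mstn, the receptors Acvr2a, Acvr2b, Acvr1b and Tgfbr1, the intracellular Smads Smad2, Smad3 and Smad7, and the secreted follistatin family members Fst and Fstl1. The mice were wild-type C57/BL6J animals of 26 months. Over 30 days of oral dosing, 1 group was given farnesol, an isoprenoid alcohol, at 350 mg/kg (3 libraries), and the other its vehicle, saline with 5% DMSO (3 libraries). The study asked what farnesol changes in the transcripts of old muscle. The labels call the libraries biological replicates but do not say whether each came from its own animal or from pooled animals. The p-values therefore set the difference between groups against the spread among these libraries only, which may be partly technical. They may not extend to other animals. Counts are of tags made with a QuantSeq kit, which is designed to read near the 3′ end of each transcript, and levels are given as CPM, the usual counts scaled to library size, with trimmed-mean (TMM) scaling.

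Myostatin is a growth factor of the transforming growth factor β (TGF-β) family that is made by muscle fibres and limits muscle size. It binds a type II activin receptor (Acvr2b or Acvr2a), which then activates a type I receptor (Acvr1b, also called ALK4, or Tgfbr1, also called ALK5). The type I receptor phosphorylates Smad2 and Smad3, which enter the nucleus with Smad4. Follistatin (Fst) holds the ligand outside the cell, and Smad7 blocks the type I receptor as a feedback inhibitor. These steps act largely through protein processing and phosphorylation, which transcript counts do not measure.

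None of the 10 genes passed edgeR's quasi-likelihood test at an adjusted p of 0.05. Acvr1b had too few counts to pass the filter before this test, and each of the other 9 had an adjusted p of 1.0 in edgeR. Over all 11674 genes tested 0 passed (0%), with 351 (3.01%) at an unadjusted p under 0.05. DESeq2 and limma-voom also called 0 genes, with 416 of 16624 and 361 of 11674 at an unadjusted p under 0.05. The 9 tested members had a median log2 fold change of −0.07, beside −0.01 over all genes tested. After farnesol 2 of them were higher and 7 lower, beside 5736 higher and 5938 lower over all genes tested. Of the 9, 8 had groups that overlapped and 8 had a 95% interval that included 0. Smad2 was the exception in both, and the 1 member with an unadjusted p under 0.05 in this fit, a side of the threshold that some alternatives changed (given with its values below). With a library left out, other members also fell under 0.05 (given in the section on processing). Groups did not overlap in 8.82% of all genes tested, 4.75% higher and 4.07% lower after farnesol, so a count of 1 in 9 is not a result about the members as a group. The fold changes below are therefore values with their intervals, not changes.

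Total counts ran from 9895700 to 12707751 per library. The 8 myofibre markers (among them the skeletal actin Acta1, creatine kinase Ckm and fast myosin Myh4) were detected in all 6 libraries, with sums of 138129 to 148253 CPM in farnesol and 107883 to 160934 CPM in vehicle libraries. A pair of libraries stood apart. Farnesol replicate 1 had fewer counts on long transcripts: its deviation from a gene's average had a Spearman correlation of −0.24 with transcript length over genes, against 0.02 to 0.10 in the other 5 libraries, and the ribosomal RNA precursor Rn45s took 4.97% of counts, against 9.92% to 15.4%. Vehicle replicate 3 had the lowest myofibre sum and the highest sums of macrophage markers (213 CPM, against 85.9 to 143 CPM elsewhere) and of endothelial markers (323 CPM, against 157 to 313 CPM). Sums of erythroid markers ran from 5388 to 9595 CPM in farnesol and from 3451 to 5591 CPM in vehicle libraries, and those of adipocyte markers from 180 to 266 CPM in farnesol and from 97.1 to 186 CPM in vehicle libraries; their part in the values below was not tested. In bulk muscle, fewer cells of a type and less RNA per cell cannot be told apart.

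**Figure D1:**
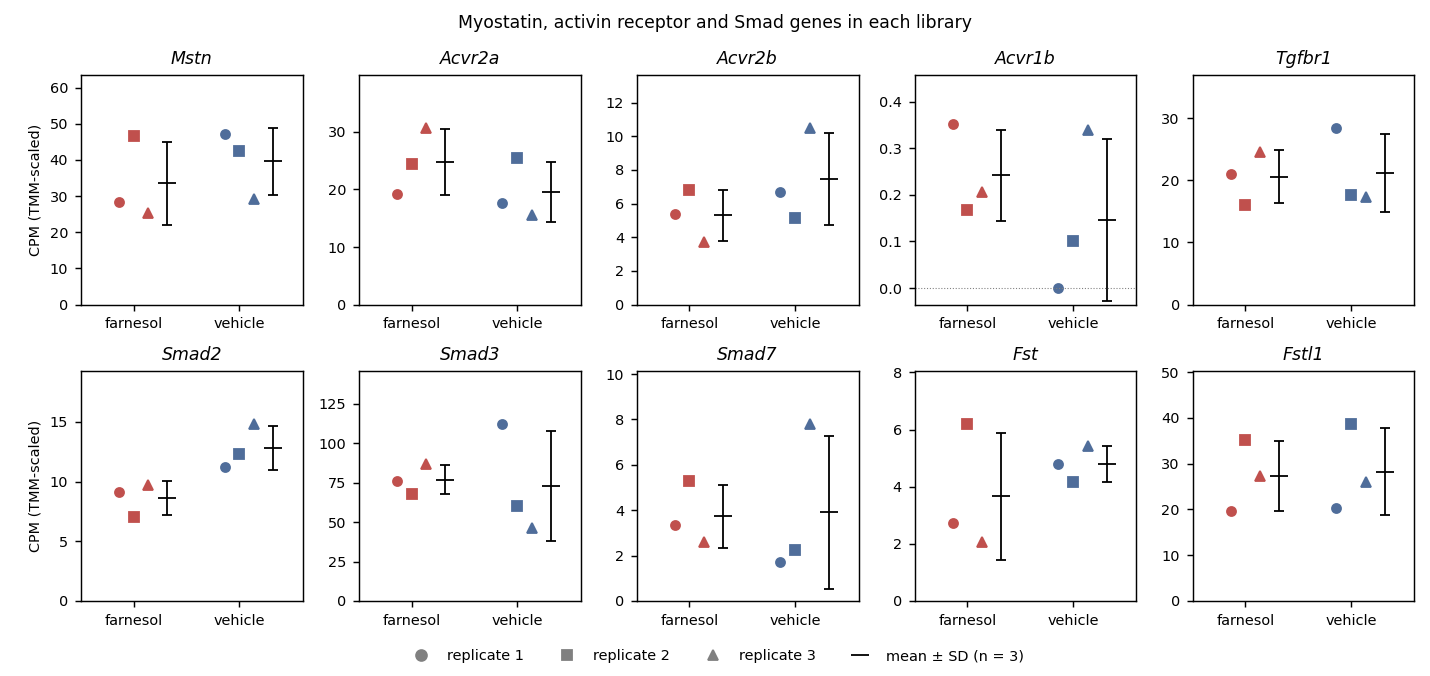
TMM-scaled CPM of the 10 genes in each library, with farnesol left of vehicle, a symbol for each replicate, and the mean and SD of 3 libraries beside the points; each panel has its own axis. Smad2 is the gene whose groups do not overlap, at 7.03 to 9.70 CPM in farnesol and 11.2 to 14.8 CPM in vehicle libraries, and the vehicle libraries spread widely for Smad3 and Smad7.

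Ordered per kilobase of the longest annotated transcript, Smad3 stood first at a mean of 14.7 CPM per kb over the 6 libraries, next to Mstn at 13.5 CPM per kb. Fstl1 followed at 7.34 CPM per kb, Acvr2a at 3.90, Tgfbr1 at 3.63, Acvr2b at 2.01, Fst at 1.45, Smad2 at 1.32, Smad7 at 0.894 and Acvr1b at 0.0440 CPM per kb. Neighbours overlapped in range over the 6 libraries down to Smad7, which lay above Acvr1b in every library. Within a library Mstn exceeded Fstl1 in 6 of 6, whereas Smad3 against Mstn, Acvr2a against Tgfbr1 and Fst against Smad2 were each split 3 to 3 on this scale. Where a transcript yields tags only near its 3′ end, dividing by length understates long transcripts. On the scale of CPM alone Smad3 exceeded Mstn and Smad2 exceeded Fst in 6 of 6 libraries each and Mstn exceeded Fstl1 in 5 of 6, while Acvr2a against Tgfbr1 stayed split 3 to 3. On that scale Smad2, with the longest transcript (8.09 kb), averaged 8.63 CPM in farnesol and 12.8 CPM in vehicle libraries, while Acvr2b averaged 5.29 CPM in farnesol and 7.46 CPM in vehicle libraries.

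The ligand gene Mstn lies on chromosome 1 (53061640 to 53068079; positions here and below are in mm10). It had 28.5, 46.7 and 25.4 CPM in farnesol replicates 1 to 3, against 47.1, 42.6 and 29.2 CPM in vehicle replicates 1 to 3. A low vehicle library lay beside the low farnesol ones and a high farnesol library beside the high vehicle ones, so the groups overlapped. The means were 33.5 ± 11.5 CPM in farnesol and 39.6 ± 9.33 CPM in vehicle libraries (SD, n = 3 each). The fold was 0.848 with a 95% interval of 0.606 to 1.19. Counting error was 5.02% at its mean of 397 counts per library, far below the coefficient of variation of 34.4% among farnesol and 23.5% among vehicle libraries. Its log2 fold change was −0.56 without farnesol replicate 2 and −0.08 without farnesol replicate 3.

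Promoter sequences are shown for Mstn and for its type II receptors Acvr2a and Acvr2b, because the signal of this pathway ends on DNA. The fold changes of these receptors had opposite signs, but both intervals included 1. No link between sequence and fold change was tested. Each sequence runs 5′ to 3′ on the gene's own strand, from 250 bases before to 50 bases after a RefSeq start in GRCm38.p6. For Mstn and Acvr2a that start is the first base of the gene as given here. The Acvr2b window (119401928 to 119402227) lies wholly inside the gene's span of 119401583 to 119442148. It therefore belongs to a start downstream of the gene's first base, and its motifs and GC content describe that window only. Capitals mark TATAAA, a core promoter element, and CAGAC, the core of the Smad-binding element, each searched on both strands (GTCTG is CAGAC read on the other strand).
Mstn, chr1:53061390-53061689, plus strand: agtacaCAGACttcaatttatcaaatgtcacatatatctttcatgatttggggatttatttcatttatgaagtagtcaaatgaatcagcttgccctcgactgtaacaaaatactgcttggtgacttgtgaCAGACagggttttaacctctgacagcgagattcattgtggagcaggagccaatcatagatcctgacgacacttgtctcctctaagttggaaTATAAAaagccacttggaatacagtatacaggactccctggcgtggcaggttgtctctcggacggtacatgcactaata
Acvr2a, chr2:48813859-48814158, plus strand: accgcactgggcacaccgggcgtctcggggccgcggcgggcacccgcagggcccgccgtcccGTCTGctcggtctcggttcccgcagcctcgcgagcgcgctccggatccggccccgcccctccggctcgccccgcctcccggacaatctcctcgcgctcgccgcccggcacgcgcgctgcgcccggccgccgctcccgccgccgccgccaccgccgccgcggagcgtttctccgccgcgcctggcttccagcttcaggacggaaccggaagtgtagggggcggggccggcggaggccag
Acvr2b, chr9:119401928-119402227, plus strand: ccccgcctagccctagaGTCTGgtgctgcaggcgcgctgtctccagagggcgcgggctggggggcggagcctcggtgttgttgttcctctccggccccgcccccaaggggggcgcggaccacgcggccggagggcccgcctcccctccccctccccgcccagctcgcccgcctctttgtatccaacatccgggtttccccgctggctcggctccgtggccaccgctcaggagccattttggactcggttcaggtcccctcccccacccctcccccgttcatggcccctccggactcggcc
The Mstn window held 1 TATAAA, which starts 29 bases before the annotated start, and 2 CAGAC, which start 244 and 120 bases before it. It also held 4 E-boxes (CANNTG, the motif of myogenic factors), and its GC content was 41.3%. Neither receptor window held TATAAA or an E-box. Each held 1 CAGAC, and their GC contents were 80.3% for Acvr2a and 73.3% for Acvr2b, against a median of 52.7% over 32851 RefSeq promoters of this length. Of those promoters 13.6% hold TATAAA, 49.6% hold CAGAC and 72.3% hold CANNTG. The full palindrome GTCTAGAC was in 0.213% of them and in none of these 3. A match is a description of the letters, not evidence of a bound factor. The set of RefSeq promoters used held entries for 7 of the 10 genes, although RefSeq gives a position for all 10.

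Among the type II receptors, Acvr2b (chromosome 9, 119401583 to 119442148) binds myostatin with the higher affinity of the pair. It had 5.38, 6.78 and 3.71 CPM in farnesol libraries, against 6.71, 5.16 and 10.5 CPM in vehicle libraries. The high value was vehicle replicate 3, and the remaining 5 libraries were mixed between the groups. The fold was 0.710 (95% interval 0.421 to 1.20), and without vehicle replicate 3 the log2 fold change was −0.16, against −0.49 with all libraries. Macrophage and endothelial marker sums were also highest in that library, and their part in this value was not tested.

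Acvr2a (chromosome 2, 48814109 to 48903264) had 19.2, 24.4 and 30.8 CPM in farnesol libraries, against 17.7, 25.4 and 15.5 CPM in vehicle libraries. The highest library was from farnesol and the lowest from vehicle, with the 4 between them mixed. The fold was 1.27 (0.901 to 1.78), the highest of the 9 genes. The log2 fold change of 0.34 became 0.16 without farnesol replicate 3 and 0.57 without vehicle replicate 2.

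The 3′ end of Acvr2a overlaps the 3′ end of Orc4, which encodes a subunit of the origin recognition complex and is transcribed from the other strand. In the GENCODE annotation the spans of the 2 genes overlap by 446 bases, at chromosome 2, 48902824 to 48903269. The Acvr2a position given above is RefSeq's and ends at 48903264. Orc4 had 30.2, 44.6 and 60.3 CPM in farnesol libraries, against 37.3, 48.6 and 28.1 CPM in vehicle libraries. Acvr2a had between 0.476 and 0.636 counts per Orc4 count in the 6 libraries, while Orc4 itself ranged from 28.1 to 60.3 CPM. The log2 CPM of the 2 genes had a Pearson correlation of 0.94 over the 6 libraries, which share depth and scaling. Of the 11673 other tested genes, Orc4 ranked 26 in likeness to Acvr2a. Elsewhere in these tables strand was not separated: counts of Tsix, which runs antisense to Xist, amounted to 95.9% to 99.0% of the Xist counts. Whether Acvr2a tags came from Acvr2a or from Orc4 therefore cannot be told apart, and the Acvr2a values are uncertain for that reason.

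**Figure D2:**
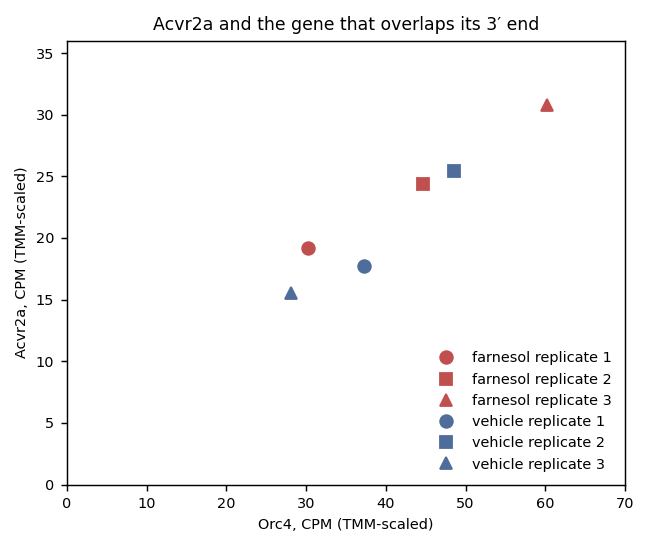
TMM-scaled CPM of Acvr2a (vertical axis) against Orc4 (horizontal axis), a point per library, coloured by group with a symbol for each replicate. Farnesol replicate 3 is highest for both genes (30.8 and 60.3 CPM) and vehicle replicate 3 lowest for both (15.5 and 28.1 CPM).

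Of the type I receptors, Tgfbr1 (chromosome 4, 47353222 to 47414926) had 21.1, 16.1 and 24.6 CPM in farnesol libraries, against 28.5, 17.7 and 17.4 CPM in vehicle libraries. The groups overlapped throughout. Its fold was 0.970 (0.685 to 1.37), and the sign turned without vehicle replicate 1 (log2 fold change 0.23) or farnesol replicate 2 (0.11). Acvr1b (chromosome 15, 101174072 to 101213684) had 4, 2 and 2 counts in farnesol libraries, against 0, 1 and 4 counts in vehicle libraries. A count of 0 in vehicle replicate 1 allows up to 3 counts, or 0.288 CPM, for counting error only. No fold is given at these counts, where a difference was not detectable.

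Smad2 (chromosome 18), a receptor-activated Smad, had the lowest edgeR unadjusted p of the tested members. It stood at 9.17, 7.03 and 9.70 CPM in farnesol libraries, against 11.2, 12.3 and 14.8 CPM in vehicle libraries. Every farnesol value lay below every vehicle value. The means were 8.63 ± 1.41 CPM in farnesol and 12.8 ± 1.85 CPM in vehicle libraries (SD, n = 3 each), a fold of 0.673 with a 95% interval of 0.454 to 0.999. In edgeR the unadjusted p was 0.0493 and the adjusted p 1.0. With all libraries kept, the unadjusted p was 0.0599 in DESeq2, and in edgeR it was 0.0552 with no filter and 0.0503 with a filter of 5 CPM. Under the remaining alternatives that keep all libraries it lay between 0.0428 (limma-voom) and 0.0498 (edgeR, upper quartile scaling). The log2 fold change was −0.57 (SE 0.27), from a mean of 116 counts per library, and its extremes in fits that omit a library were −0.66 and −0.44. Without vehicle replicate 3, its highest library, it was −0.45 (edgeR unadjusted p = 0.164), and the unadjusted p was also above 0.05 without farnesol replicate 1, farnesol replicate 2 or vehicle replicate 2 (0.0629, 0.159 and 0.0681). The edgeR unadjusted p was under 0.05 without farnesol replicate 3 (0.0458) or vehicle replicate 1 (0.0412).

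Smad3 (chromosome 9, 63646766 to 63757994), the close relative of Smad2 that binds DNA directly, had 76.2, 68.0 and 86.6 CPM in farnesol libraries, against 112, 60.3 and 46.2 CPM in vehicle libraries. The 3 farnesol values sat inside the vehicle range, with a coefficient of variation of 12.1% against 47.7% among vehicle libraries. Counting error was 3.53%. The fold was 1.06 (0.702 to 1.59). The log2 fold change ran from −0.17 without vehicle replicate 3 to 0.53 without vehicle replicate 1. It was also below 0 without vehicle replicate 2 (−0.04) or farnesol replicate 3 (−0.02), so its sign was not settled.

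Smad7 (chromosome 18), the inhibitory Smad, had 3.35, 5.27 and 2.58 CPM in farnesol libraries, against 1.73, 2.23 and 7.80 CPM in vehicle libraries. Vehicle replicate 3 had 92 counts, above every farnesol library, while vehicle replicates 1 and 2 had 18 and 22 counts, below every one. The fold was 0.950 (0.447 to 2.02) with all libraries. Without vehicle replicate 3 the log2 fold change was 0.92 (edgeR unadjusted p = 0.115), against −0.07 with it. The sign also turned without farnesol replicate 3 (0.13), with limma-voom (0.16) and, at 0.00, without farnesol replicate 1. Vehicle replicate 3, highest for Acvr2b, Smad2 and Smad7, is the library with the highest macrophage and endothelial marker sums, whose part in the Smad values was not tested. The coefficient of variation of Smad7 in vehicle libraries, 86.1%, was the largest of the 9 tested genes and exceeded a counting error of 15.2%.

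**Figure D3:**
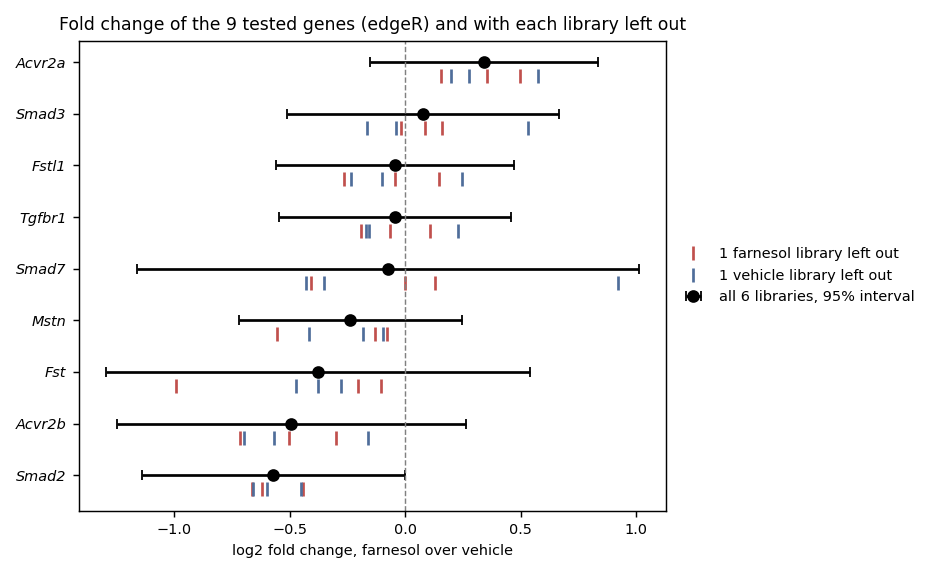
Log2 fold change of farnesol over vehicle for the 9 tested genes (black points, 95% interval from edgeR) and with each library left out in turn (red ticks: a farnesol library left out, blue ticks: a vehicle library left out). The interval of Smad2 ends at −0.002, and the ticks of Smad7 reach from −0.43 to 0.92.

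Follistatin, Fst (chromosome 13, 114452262 to 114458989), had 2.73, 6.19 and 2.06 CPM in farnesol libraries, against 4.79, 4.15 and 5.42 CPM in vehicle libraries. The lowest and the highest library were both from farnesol, and the vehicle libraries lay close together between them. The coefficient of variation was 60.5% in farnesol and 13.3% in vehicle libraries, where counting error alone gives 14.6% at a mean of 46.7 counts. The fold was 0.769 (0.407 to 1.45), and without farnesol replicate 2 the log2 fold change was −0.99, against −0.38. An antisense transcript, Gm47040, is annotated over an Fst exon. No counts are given for Gm47040, so whether Fst counts include its tags cannot be told.

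Fstl1 (chromosome 16, 37777055 to 37836516) encodes a secreted protein of the follistatin family made by fibroblasts and muscle, which is not established as a myostatin antagonist. It had 19.7, 35.1 and 27.3 CPM in farnesol libraries, against 20.2, 38.7 and 25.9 CPM in vehicle libraries. Both groups covered almost the same range. The fold was 0.970 (0.678 to 1.39). The sign turned without vehicle replicate 2 (log2 fold change 0.25) or farnesol replicate 1 (0.14). The 11 markers of fibro-adipogenic progenitors and fibroblasts were all detected in each library, with sums of 707 to 953 CPM in farnesol and 678 to 893 CPM in vehicle libraries, and their part in the Fstl1 and Fst values was not tested.

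Ratios within a library do not depend on its scaling. Mstn had 10.4, 7.54 and 12.3 counts per Fst count in farnesol libraries, against 9.82, 10.3 and 5.38 in vehicle libraries. In CPM, ligand and inhibitor were both low in farnesol replicates 1 and 3, and the ratios overlapped. Smad3 had 8.31, 9.68 and 8.93 counts per Smad2 count in farnesol libraries, against 10, 4.89 and 3.11 in vehicle libraries. The farnesol ratios were close together and vehicle replicate 1 exceeded them all. Acvr2a had 3.57, 3.59 and 8.28 counts per Acvr2b count in farnesol libraries, against 2.64, 4.92 and 1.48 in vehicle libraries, with the uncertainty given above for Acvr2a. Smad7 counts per Smad3 count were 0.0440, 0.0775 and 0.0298 in farnesol libraries and 0.0154, 0.0369 and 0.169 in vehicle libraries, so the vehicle libraries held both the lowest and the highest ratio.

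**Figure D4:**
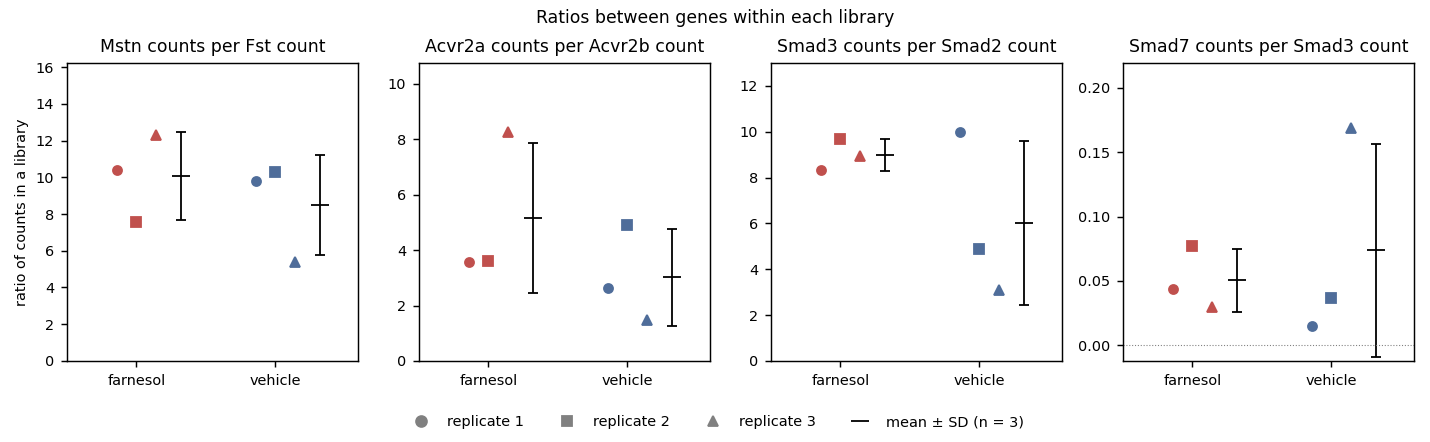
Ratios of raw counts between pairs of the genes within each library, farnesol left of vehicle, with a symbol for each replicate and the mean and SD of 3 libraries beside the points. The Smad3 to Smad2 ratio lies between 8.31 and 9.68 in farnesol and between 3.11 and 10 in vehicle libraries.

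Of the 9 tested members, 5 (Mstn, Acvr2a, Acvr2b, Smad2 and Fst) had a fold change of 1 sign with each library left out. The same was true of 48.6% of all genes tested, a share to which 5 of 9 is close. The 5 tested genes most like Mstn over the 6 libraries, among 4129 with a mean of at least 20 CPM, were Ptov1, Zfp148, Lbr, Cnot6l and Txndc15. Their Pearson correlations with Mstn in log2 CPM were 0.99, 0.98, 0.97, 0.97 and 0.97. Correlations of at least 0.9 were found for 40 of the 4129 genes. The 5 were picked as the highest correlations over only 6 libraries, so high values follow from the choice. How many would reach 0.9 by chance was not tested. Ptov1 had 41.5, 57.7 and 38.6 CPM in farnesol libraries, against 59.8, 57.3 and 45.2 CPM in vehicle libraries. Like Mstn it was low in farnesol replicates 1 and 3, which restates the choice.

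The rest of the pathway was described through 84 further genes in 6 lists, of which 67 had enough counts to be tested. None passed over all genes in edgeR. In 35 the fold change was above 0 and in 32 below, with a median log2 fold change of 0.00. Groups did not overlap in 5 of the 67, 1 higher and 4 lower after farnesol, where 8.82% of all genes tested did not overlap. An unadjusted p under 0.05 was found for 1 of them.

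Of 9 other ligands tested, 5 had a fold change above 0 and 4 below, and their median was 0.04. Gdf11, the closest relative of myostatin, averaged 9.03 ± 3.85 CPM in farnesol and 9.40 ± 3.46 CPM in vehicle libraries (SD, n = 3 each). Gdf10, also called BMP3B, had 2.38, 2.59 and 1.65 CPM in farnesol libraries, against 3.74, 4.76 and 2.97 CPM in vehicle libraries, without overlap (fold 0.582, 0.293 to 1.16). Gdf5, a bone morphogenetic protein (BMP) ligand that opposes denervation atrophy in mice, had a fold of 1.98 (0.705 to 5.58), and Inhbb, which encodes the activin B subunit, of 1.64 (0.597 to 4.52).

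Among genes of ligand processing and storage 6 lay above 0 and 3 below (median 0.16). Latent TGF-β binding proteins tether the inactive ligand to the matrix. Ltbp4 had 41.8, 35.8 and 40.7 CPM in farnesol libraries, against 25.4, 35.9 and 23.4 CPM in vehicle libraries, so that vehicle replicate 2 lay just above the lowest farnesol library. Its fold was 1.40 (1.05 to 1.86), with an unadjusted p of 0.0243 and an adjusted p of 1.0 in edgeR. Ltbp1 had 13.5, 11.8 and 12.7 CPM in farnesol libraries, against 8.24, 11.3 and 8.81 CPM in vehicle libraries, without overlap, and a fold of 1.34 (0.912 to 1.96). Bmp1, a protease of the tolloid group that frees myostatin from its propeptide, had 2.20, 2.34 and 2.27 CPM in farnesol libraries, against 2.78, 5.16 and 3.31 CPM in vehicle libraries. These groups did not overlap, and the fold was 0.608 (0.306 to 1.21).

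Of 10 other extracellular inhibitors, 7 lay above 0 and 3 below (median 0.04). Wfikkn2 (GASP-1), which binds myostatin and its propeptide, had a fold of 1.16 (0.799 to 1.69) and the BMP-binding Bmper of 0.796 (0.475 to 1.33). The BMP antagonist Nog had a fold of 0.730 (0.297 to 1.79), and its log2 fold change of −0.45 became −1.19 without farnesol replicate 2 and −0.17 without farnesol replicate 3. Of 11 other receptors and co-receptors, 4 lay above 0 and 7 below (median −0.01). Among them Bmpr2, the type II BMP receptor, had 87.3, 77.8 and 88.3 CPM in farnesol libraries, against 91.5, 98.1 and 89.7 CPM in vehicle libraries. Its groups did not overlap, but the fold was 0.908 (0.729 to 1.13). Acvr1c (ALK7) had a fold of 0.632 (0.280 to 1.43). Amhr2, the receptor of anti-Müllerian hormone, had a fold of 1.66 (0.731 to 3.75), and its log2 fold change of 0.73 became 1.54 without vehicle replicate 3 and 0.24 without farnesol replicate 1.

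Of 17 other Smads and Smad regulators, 6 lay above 0 and 11 below (median −0.08). Smad4, the common partner of the receptor-activated Smads, had 36.9, 37.1 and 46.2 CPM in farnesol libraries, against 51.7, 45.7 and 45.1 CPM in vehicle libraries, and 1 farnesol library lay among the vehicle ones (fold 0.843, 0.655 to 1.09). Smad5, which carries BMP signals, had 47.1, 47.1 and 47.0 CPM in farnesol libraries, against 51.6, 48.0 and 52.0 CPM in vehicle libraries, without overlap but at a fold of only 0.931 (0.735 to 1.18). Smad1, its close relative, had a fold of 0.785 (0.534 to 1.15), and Pmepa1, a TGF-β-induced inhibitor of Smad2 and Smad3, of 0.854 (0.666 to 1.10). Of 11 transcriptional targets, 7 lay above 0 and 4 below (median 0.04). The matrix gene Tgfbi had a fold of 1.21 (0.850 to 1.73), Ctgf of 1.33 (0.648 to 2.75) and Postn of 1.63 (0.557 to 4.77).

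Of 8 tested genes listed as downstream of myostatin in muscle, 1 lay above 0 and 7 below (median −0.25), and none passed over all genes. Whether these genes answer to myostatin here was not tested. Fbxo32, the ubiquitin ligase atrogin-1, had 831, 762 and 981 CPM in farnesol libraries, against 1498, 1093 and 1345 CPM in vehicle libraries, without overlap. Its fold was 0.654 (0.517 to 0.827), with an unadjusted p of 0.00107 and an adjusted p of 1.0 in edgeR. Trim63 (MuRF1) had a fold of 0.771 (0.577 to 1.03) and the growth factor Igf1 of 0.815 (0.576 to 1.15), both with overlapping groups. The list was drawn up with the values of Fbxo32 and Trim63 known, so its direction is not independent evidence.

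**Figure D5:**
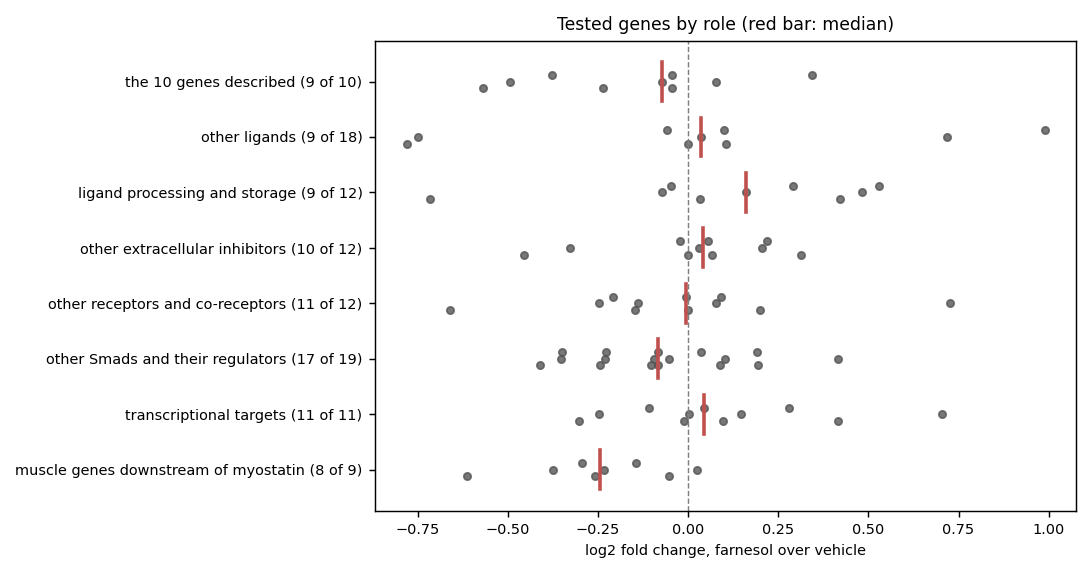
Log2 fold change of farnesol over vehicle for each tested gene (grey points), by role, with the median of each list as a red bar; the number tested of those listed stands beside each name. Medians lie between −0.25 for the list labelled muscle genes downstream of myostatin and 0.16 for ligand processing and storage, beside −0.01 over all genes tested.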

How the data were processed

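Gastrocnemius RNA (500 ng) was made into QuantSeq libraries, per the labels' protocols. The authors deposited 1 table of raw counts by gene symbol for each library; the tools and build named are Bowtie2, bedtools and mm10, per the submitters' processing notes. The sources used here do not give versions, annotation, strand or the handling of duplicate reads. Each table lists 23282 features under 23238 symbols; lines of the 35 repeated symbols were summed.

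Libraries were grouped by title into farnesol (n = 3) and vehicle (n = 3). Genes were tested on all 6 libraries with edgeR 4.0.16 in R 4.3.3 (filterByExpr, TMM, robust estimateDisp and glmQLFit, glmQLFTest, Benjamini-Hochberg over 11674 genes, threshold 0.05). The biological coefficient of variation was 25.7%. A standard error is |log2 fold change| divided by √F, and 95% intervals use the t distribution. The scripts were tested on simulated data. Alternatives were RLE and upper quartile scaling, no Rn45s, no filter, a filter of 5 CPM, DESeq2 1.42.0, limma-voom (limma 3.58.1), a replicate block and each library left out.

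The members, lists and tests were chosen with earlier results of these data known. Besides the members, up to 3 genes of smallest unadjusted p per list, any gene past the threshold and 5 genes of highest correlation with Mstn were named; Gdf11, Smad5, Orc4, Xist, Tsix, Rn45s, Tgfb1 to Tgfb3, Tll1, Tll2, Smad9 and the marker examples were named outside this rule after their values were seen. Positions and promoters are RefSeq's in GRCm38.p6, which has the same chromosomes as mm10; transcript lengths and overlaps are GENCODE vM21's. A count of 0 allows 3 counts (0.251 to 0.310 CPM, for counting error only).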

Additional observations from a re-analysis of the deposited data

How the results depend on the processing

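Of the 9 members tested in the main analysis, 0 passed an adjusted p of 0.05 under any alternative run, with genes tested numbering 8109 to 16624. Acvr1b was fitted only with no filter and with DESeq2, and did not pass there either. Under the 8 alternatives that keep all libraries, the sign of each of the 9 members held except that of Smad7. Its log2 fold change was 0.16 with limma-voom and 0.20 with the replicate block. With each library left out the range was −0.56 to −0.08 for Mstn, 0.16 to 0.57 for Acvr2a, −0.71 to −0.16 for Acvr2b, −0.19 to 0.23 for Tgfbr1, −0.66 to −0.44 for Smad2, −0.17 to 0.53 for Smad3, −0.43 to 0.92 for Smad7, −0.99 to −0.10 for Fst and −0.27 to 0.25 for Fstl1. Besides Smad2, the edgeR unadjusted p was under 0.05 for Smad3 without vehicle replicate 1 (0.0150), Mstn without farnesol replicate 2 (0.0294) and Acvr2a without vehicle replicate 2 (0.0371). For Smad3, Mstn and Acvr2a it was above 0.05 in every other fit that omits a library. With a library left out, the members' median log2 fold change ran from −0.41 (without farnesol replicate 2) to −0.064, with −0.24 without vehicle replicate 1, and that of the other pathway genes from −0.021 to 0.042. With all libraries kept, the members' median was nearest 0 with limma-voom (−0.034). Over all genes, edgeR called 13 without the filter and 0 to 3 with a library left out (3 without vehicle replicate 2), none of them a member; the cause was not tested. Smad7 and Fst could not be fitted under the filter of 5 CPM, nor Acvr1b in the main analysis. Deviations of same-numbered libraries correlated at 0.04, 0.06 and −0.02, so the numbers were not taken to pair them; the block moved the genes at an unadjusted p under 0.05 to 428, against 351, and called 0. Low counts limit what can be said of Acvr1b (at most 4 counts in a library) and leave Smad7 and Fst with counting errors near 15%.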

Other observations

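Several genes on the pathway lists were at or near 0 in every library. Tgfb1, which encodes TGF-β1 and is made by many cell types, was listed at 0 in all 6 libraries, while its relatives Tgfb2 and Tgfb3 averaged 36.8 and 44.2 CPM in farnesol and 36.8 and 43.1 CPM in vehicle libraries. The ligand-freeing proteases Tll1 and Tll2 held 4 and 0 counts in all, and the BMP-pathway Smad9 held 5 counts in farnesol and 3 in vehicle libraries. Together with the 13 counts of Acvr1b in 6 libraries, these values limit what the tables can say about TGF-β1, ALK4 and Smad9. Whether a value at 0 reflects the tissue or the counting was not tested.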
